A study of Mus musculus with 12 samples.

Results

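The genes described here are 8 co-stimulatory and checkpoint ligands, the surface proteins with which a cell that presents antigen instructs T cells: Cd40, Cd80, Cd86, Cd83, Cd274, Pdcd1lg2, Icosl and Icam1. They were chosen by mouse gene symbol and matched through GENCODE release M21 to the Ensembl identifiers of the expression table, where all 8 were found among 54532 genes. Of these, 7 were tested. Pdcd1lg2 did not pass the filter on low values, which asked for at least 1 FPKM (fragments per kilobase of exon, scaled by a denominator for each library) in at least 3 libraries.

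RNA sequencing compared bone-marrow-derived macrophages with osteoclasts, the multinucleated bone-resorbing cells that form from such macrophages under the cytokine RANKL. The 12 libraries fall into 4 groups of 3: untreated macrophages, macrophages with lipopolysaccharide (LPS, the endotoxin of Gram-negative bacteria), untreated osteoclasts and osteoclasts with LPS. All came from wild-type mice, and no group carried an introduced allele. Marrow of femurs and tibiae was expanded in CMG, a source of M-CSF, and both cell types then stayed in 2% CMG. The osteoclasts also had RANKL, at 100 ng/mL in the sample source and 50 to 100 ng/mL in the protocol. On day 5, cells of the LPS groups had 100 ng/mL LPS for 3 h. Labels do not state that replicates came from separate mice or cultures, so p-values measure the spread between these samples, which may be technical.

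T cells need a co-stimulatory signal beside the antigen receptor. CD80 and CD86 bind CD28, which activates, or CTLA-4, which inhibits, and ICOS ligand binds the CD28 relative ICOS. CD40 works the other way round: it receives CD40 ligand from T cells and drives the presenting cell to raise its own ligands. PD-L1 (gene Cd274) and PD-L2 (gene Pdcd1lg2) engage PD-1 and restrain T cells, while ICAM-1 holds the contact through the integrin LFA-1 and CD83 protects MHC class II and CD86 from degradation. In macrophages, Toll-like receptor signalling through NF-kB and interferon is known to raise several of these genes.

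Assigned reads, recovered from the FPKM steps, ran from 15651778 to 20281457 per library, and 9728 to 10301 genes reached 1 FPKM. Replicates of a group differed by more than counting noise in every pair, with chi-square over degrees of freedom at 2.62 to 12.6, the highest between osteoclast replicates 1 and 2 with LPS. All 10 osteoclast markers reached 1 FPKM in both osteoclast groups, with a summed level of 29220.3 to 32220.2 FPKM against 16.3 to 29.0 in the macrophage libraries. The 10 macrophage markers summed to 13529 to 16513 FPKM in macrophages and 2757 to 3615 in osteoclasts. Mitochondrial genes took 1.27% to 1.62% of reads in macrophages and 5.16% to 6.18% in osteoclasts.

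LPS raised all 7 tested ligands in macrophages and 6 of the 7 in osteoclasts, and under LPS all 7 stood lower in osteoclasts than in macrophages. Summed over the 8 genes, the level was 64.2 ± 1.41 FPKM (SD, n = 3) in untreated macrophages and 1583 ± 23.3 with LPS. In osteoclasts it was 18.8 ± 0.700 FPKM without and 144 ± 16.5 with LPS (SD, n = 3), so the sum in osteoclasts with LPS lay above that of resting macrophages and far below that of macrophages with LPS. Cd86 (0.616 against 5.00 FPKM) and Icosl (3.02 against 7.84) were lower in osteoclasts with LPS than in resting macrophages, with no overlap of libraries. In the single fit of limma over all 11335 tested genes (Benjamini-Hochberg adjusted p under 0.05), 69.9% of genes were called for LPS in macrophages and 36.8% were called higher and 33.1% lower. The 7 ligands had a median log2 difference of 3.55 there, against 0.02 over all tested genes. In osteoclasts 17.7% of genes were called for LPS with 11.1% higher and 6.59% lower, and the ligands' median was 2.17 against 0.01. The member not called in osteoclasts was Cd86.

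Without LPS, 5 of the 7 ligands (Icosl, Cd86, Cd40, Icam1 and Cd83) were called lower in osteoclasts and none higher, while 77.8% of all tested genes were called, 38.8% higher and 39.0% lower. Libraries of the untreated groups were apart for 6 of the 7 (all but Cd80), and for 81.4% of all genes. The ligands' median log2 difference was -1.89, against 0.00 over all genes. With LPS all 7 were called lower, against 83.9% of genes called (40.9% higher and 43.0% lower), with a median of -3.71 against -0.02. All 7 were apart in every library there, as were 83.6% of genes. The interaction, which subtracts the log2 LPS effect in macrophages from that in osteoclasts, was called below 0 for all 7, where 56.6% of all genes were called, 26.6% above and 30.0% below 0. Among the 4168 genes called higher with LPS in macrophages, 78.6% had an interaction called below 0 and 25.3% were called higher in osteoclasts. These shares depend on the scaling: after rescaling to TPM (transcript shares of each library), 13.9% of all genes had an interaction called below 0 and 63.3% above, and 5 of the 7 ligands (Cd274, Cd86, Icam1, Cd83 and Cd80) were called below 0. For Cd40 and Icosl the sign or call of the interaction depended on the scale, as their own values show. In such bulk samples, fewer cells that express a gene and less RNA per cell cannot be told apart.

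**Figure D1:**
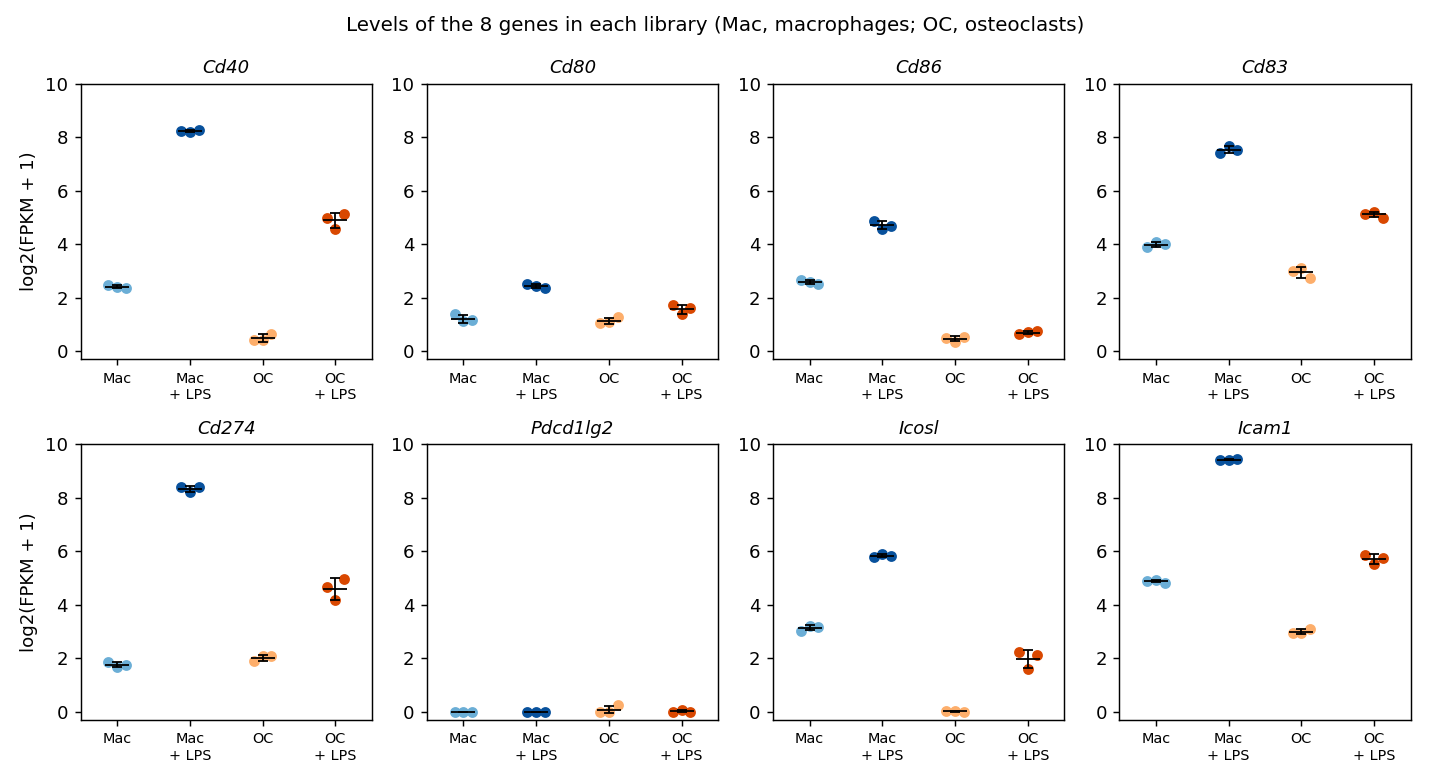
Level of each of the 8 ligands in every library on the log2(FPKM + 1) scale (y axis), by group (x axis), with 3 points per group and black marks for the mean and SD on that scale. Icam1 reaches 685 to 699 FPKM in macrophages with LPS and 44.9 to 57.7 in osteoclasts with LPS, while Pdcd1lg2 is at 0 in all but 2 osteoclast libraries.

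Ranked by level per length, Icam1 had the highest mean in every group, although Cd83 exceeded it in 2 of the 3 untreated osteoclast libraries. In untreated macrophages the order was Icam1, Cd83, Icosl, Cd86, Cd40, Cd274, Cd80 and Pdcd1lg2, and the libraries of no neighbouring pair overlapped. With LPS, Cd274 rose from the sixth to the second place (323 ± 22.3 FPKM), where its libraries overlapped those of Cd40 (299.6 ± 9.71), and Cd83, Icosl, Cd86 and Cd80 followed in that order (SD, n = 3). In untreated osteoclasts Icam1 and Cd83 overlapped at the top, Cd274 and Cd80 followed, and Cd40 and Cd86 overlapped below 1 FPKM. With LPS the osteoclast order was Icam1, then Cd83, Cd40 and Cd274, of which neighbours overlapped, then Icosl and Cd80, which overlapped, and Cd86. Icam1 supplied 43.5% to 45.4% of the summed level in each macrophage library and 34.5% to 40.0% in each osteoclast library.

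Promoters are shown for Icam1, Icosl and Cd274, which rose together with LPS and had different letters upstream of their starts. RefSeq's table (GRCm38.p6) held 5 of the 8 genes. Cd40, Cd83 and Cd86 are named only. The 250 bases before each start were searched on both strands for 6 motifs chosen with the expression values known. Over 32817 distinct promoters of the same length, 7.25% held an NF-kB consensus of 10 letters, 0.811% the short kB form GGAANTTCC, 2.97% an interferon-stimulated response element (GAAA, 2 letters of any kind, GAAA), 7.01% a GAS element TTCNNNGAA, 6.75% an AP-1 site TGANTCA and 23.3% a PU.1 core GAGGAA. Capitals mark the matches, and no printed matches overlap each other. The windows, all on the plus strand and read 5′ to 3′, are chr9:21015690-21015939 for Icam1, chr10:78069118-78069301 for Icosl (184 of the 250 bases, ending before the first base of the gene in GENCODE) and chr19:29367188-29367437 for Cd274.
Icam1: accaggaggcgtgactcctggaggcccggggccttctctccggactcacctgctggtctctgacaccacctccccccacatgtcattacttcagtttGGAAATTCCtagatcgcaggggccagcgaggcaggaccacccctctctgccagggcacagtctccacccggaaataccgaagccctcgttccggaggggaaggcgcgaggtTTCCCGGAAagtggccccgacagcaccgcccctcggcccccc
Icosl: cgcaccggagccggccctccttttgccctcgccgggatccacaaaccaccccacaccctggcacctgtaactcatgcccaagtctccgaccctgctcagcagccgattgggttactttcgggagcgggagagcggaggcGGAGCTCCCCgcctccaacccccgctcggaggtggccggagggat
Cd274: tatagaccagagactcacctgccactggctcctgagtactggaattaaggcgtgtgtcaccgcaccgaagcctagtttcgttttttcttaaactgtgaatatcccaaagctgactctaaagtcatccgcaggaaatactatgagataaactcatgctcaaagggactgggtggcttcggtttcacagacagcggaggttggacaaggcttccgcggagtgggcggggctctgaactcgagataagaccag

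Icam1 held a short kB match at 153 to 145 bases and a GAS match at 42 to 34 bases before its start, and Icosl held an NF-kB match at 111 to 102. Cd274 held none of the 6 in this window, although its log2 LPS effect in macrophages was the highest of the 7. Of the members not printed, Cd80 had an AP-1 match at 42 to 36 bases before its RefSeq start. That window (chr16:38458683-38458932) lies inside the gene as GENCODE places it, with a start at 38455561. Pdcd1lg2, which was hardly detected, had an NF-kB match at 244 to 235 and a PU.1 match at 82 to 77. A match is a description of letters, and the absence of one says only that these letters are not in this window.

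Cd40, the receptor for T cell help (ENSMUSG00000017652, chr2:165055627-165072948, plus strand, GRCm38), was low in both resting cell types and rose by nearly the same factor in each. Untreated macrophages had 4.50, 4.21 and 4.09 FPKM and macrophages with LPS 299, 290.1 and 309.5. Untreated osteoclasts had 0.318, 0.330 and 0.570 FPKM, from 20, 19 and 33 reads, and osteoclasts with LPS 30.5, 22.8 and 33.5. No groups overlapped, and each osteoclast library with LPS exceeded every untreated macrophage library. By limma on log2(FPKM + 1), the LPS effect was 5.84 (SE 0.11, adjusted p = 8.35e-13) in macrophages and 4.40 (SE 0.11, adjusted p = 5.93e-10) in osteoclasts. As a ratio of means, the increase was 70.3-fold in macrophages (95% counting interval 65.9 to 74.8) and 71.3-fold in osteoclasts (57.6 to 92.9).

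The osteoclast level of Cd40 was therefore 9.52% of the macrophage level without LPS and 9.66% with it, and limma called both differences: the log2 difference was -1.91 without LPS (SE 0.11, adjusted p = 1.09e-08) and -3.34 with LPS (SE 0.11, adjusted p = 4.22e-11). The interaction for Cd40 was -1.44 (SE 0.16, adjusted p = 1.07e-05) on log2(FPKM + 1), where the added 1 exceeds the untreated osteoclast level of 0.406 ± 0.142 FPKM (SD, n = 3). With a pseudocount of 0.1 it was -0.24 (adjusted p = 0.428), and on recovered reads with voom it was 0.04 (SE 0.43, adjusted p = 0.943). A weaker LPS effect on Cd40 in osteoclasts was thus called on the log2(FPKM + 1) scale, and on the scale of ratios no difference was detectable at this depth.

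Cd80 (ENSMUSG00000075122, chr16:38455561-38496335, plus strand), the CD28 and CTLA-4 ligand also called B7-1, was the lowest of the tested ligands in macrophages with LPS. It measured 1.58, 1.15 and 1.21 FPKM in untreated macrophages and 4.70, 4.34 and 4.07 with LPS. Untreated osteoclasts had 1.08, 1.10 and 1.41 FPKM and osteoclasts with LPS 2.26, 1.59 and 2.03. Untreated groups of both cell types overlapped, while LPS separated the libraries within each cell type. The LPS effect by limma was 1.22 (SE 0.10, adjusted p = 3.95e-07) in macrophages and 0.43 (SE 0.10, adjusted p = 0.0131) in osteoclasts, which are ratios of means of 3.32 and 1.63. The osteoclast call rested on 69 to 166 reads per library. It was lost without untreated osteoclast replicate 1 (0.39, adjusted p = 0.0502), without untreated osteoclast replicate 2 (0.39, adjusted p = 0.0501) and without osteoclast replicate 1 with LPS (0.35, adjusted p = 0.0561).

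Between cell types, Cd80 did not pass the test without LPS (log2 difference -0.07, SE 0.10, adjusted p = 0.532), with an osteoclast level at 91.2% of the macrophage level and a 95% counting interval of the ratio of 0.766 to 1.08. This sign turned under quantile normalization (0.10) and without untreated macrophage replicate 1 (0.01), and after rescaling to TPM the difference was called (-0.44, adjusted p = 0.00923). With LPS, Cd80 was 2.23-fold lower in osteoclasts (log2 difference -0.86, SE 0.10, adjusted p = 5.69e-06). The interaction was -0.79 (SE 0.14, adjusted p = 0.000530).

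Cd86 (ENSMUSG00000022901, chr16:36603869-36666081, minus strand), the other B7 ligand of CD28 and CTLA-4, rose in macrophages and stayed below 1 FPKM in every osteoclast library. Macrophages had 5.33, 4.94 and 4.72 FPKM untreated and 28.3, 22.8 and 24.7 with LPS. Osteoclasts had 0.414, 0.275 and 0.450 FPKM untreated and 0.538, 0.620 and 0.688 with LPS, from 17 to 46 reads per library. All 4 groups were separate. LPS raised Cd86 in macrophages by 2.13 on the log2 scale (SE 0.08, adjusted p = 2.74e-10 by limma), a ratio of 5.06. In osteoclasts the difference was 0.23 (SE 0.08, adjusted p = 0.0782), a ratio of 1.62 with a 95% counting interval of 1.19 to 2.18. The osteoclast difference passed the threshold with a pseudocount of 0.1 (0.59, adjusted p = 0.0154), after rescaling to TPM (0.37, adjusted p = 0.0441) and without macrophage replicate 1 with LPS (0.23, adjusted p = 0.0468).

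The gap between cell types in Cd86 was the widest of the ligands under LPS. Osteoclasts were 13.2-fold lower without LPS (log2 difference -2.12, SE 0.08, adjusted p = 1.89e-10) and 41.1-fold lower with it (-4.02, SE 0.08, adjusted p = 5.77e-13). The interaction was -1.90 (SE 0.12, adjusted p = 5.23e-08). The ratio of Cd80 to Cd86 lay on opposite sides of 1 in the 2 cell types. It was 0.233 to 0.297 in untreated macrophages and 0.165 to 0.190 with LPS, against 2.61 to 4.01 in untreated osteoclasts and 2.57 to 4.21 with LPS. Every macrophage library held more Cd86 than Cd80 transcript per length and every osteoclast library more Cd80 than Cd86.

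**Figure D2:**
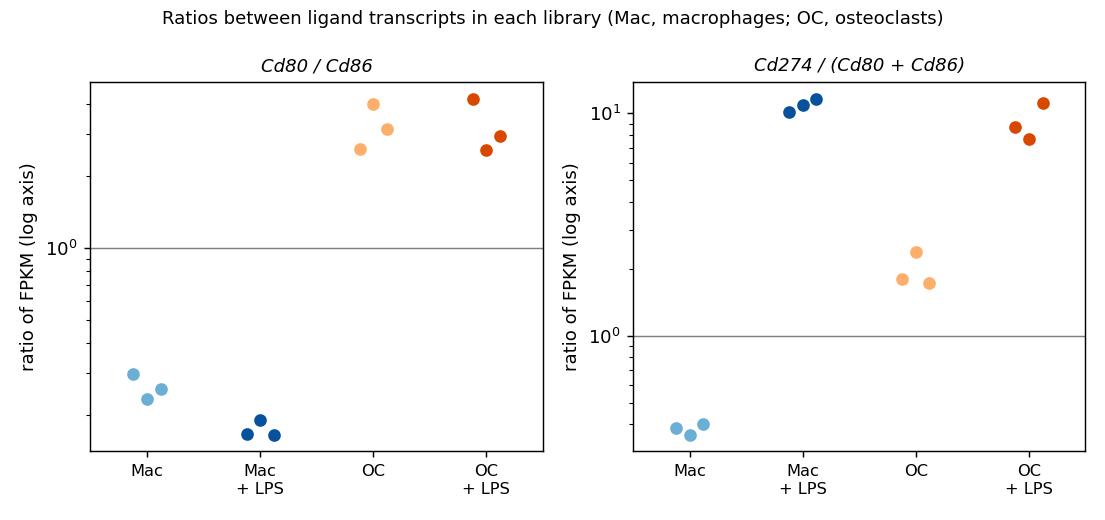
Ratios of FPKM within each library on a log axis, by group, with 1 point per library and a grey line at 1. Cd80 over Cd86 is 0.165 to 0.297 in all macrophage libraries and 2.57 or more in all osteoclast libraries, while Cd274 over the sum of Cd80 and Cd86 rises with LPS in both cell types to overlapping values (10.2 to 11.6 and 7.68 to 11.1).

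Cd83 (ENSMUSG00000015396, chr13:43784775-43803132, plus strand), a maturation marker of dendritic cells, was well above 1 FPKM in all 12 libraries. Macrophages had 13.7, 15.8 and 15.0 FPKM untreated and 168, 203 and 181 with LPS. Osteoclasts had 6.87, 7.64 and 5.60 FPKM untreated and 33.7, 36.0 and 30.8 with LPS. No groups overlapped, and osteoclasts with LPS were above untreated macrophages. The LPS effect was 3.55 (SE 0.10, adjusted p = 1.74e-11 by limma) in macrophages and 2.17 (SE 0.10, adjusted p = 2.92e-08) in osteoclasts, or 12.4-fold and 5.00-fold. Osteoclasts stood at 45.3% of the macrophage level without LPS (log2 difference -1.04, SE 0.10, adjusted p = 1.04e-06) and at 18.2% with it (-2.42, SE 0.10, adjusted p = 2.51e-10). The interaction was -1.38 (SE 0.14, adjusted p = 5.03e-06).

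Icosl (ENSMUSG00000000732, chr10:78069302-78083913, plus strand), the ligand of ICOS, was a macrophage transcript at rest and appeared in osteoclasts with LPS. Macrophages had 7.22, 8.25 and 8.07 FPKM untreated and 54.0, 59.4 and 55.6 with LPS. Untreated osteoclasts had 1, 2 and 0 reads, or 0.0117, 0.0256 and 0 FPKM, all within what a count of 0 allows (3 reads, 0.0352 to 0.0384 FPKM). Osteoclasts with LPS had 3.68, 2.05 and 3.32 FPKM from 337, 146 and 280 reads. Each of these was below every untreated macrophage library. The LPS effect by limma was 2.70 (SE 0.12, adjusted p = 1.49e-09) in macrophages and 1.96 (SE 0.12, adjusted p = 4.02e-07) in osteoclasts. In ratios of means it was 7.18-fold in macrophages and 242-fold in osteoclasts, the latter with a 95% counting interval of 84.9 to 1210.2, since untreated osteoclasts had 3 reads in total.

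Icosl had the widest gap between resting cell types, at 7.84 ± 0.550 FPKM (SD, n = 3) in macrophages against 3 reads over the osteoclast group (log2 difference -3.13, SE 0.12, adjusted p = 2.55e-10). The ratio was 630.2-fold, with a 95% counting interval of 216 to 3068. With LPS the gap was 18.7-fold (-3.86, SE 0.12, adjusted p = 2.64e-11). The interaction for Icosl changed sign with the scale: -0.73 (SE 0.18, adjusted p = 0.00377) on log2(FPKM + 1), 1.93 (adjusted p = 4.36e-05) with a pseudocount of 0.1, and 4.77 (SE 0.95, adjusted p = 0.000276) on recovered reads with voom. It was 0.97 (adjusted p = 0.000812) after rescaling to TPM. In FPKM the rise was larger in macrophages and in ratios it was larger in osteoclasts, so no direction of the difference holds across scales.

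Cd274 (ENSMUSG00000016496, chr19:29367455-29388095, plus strand), which encodes PD-L1, had the highest log2 LPS effect of the 7 in macrophages and a near-equal level in both cell types at rest. Macrophages had 2.64, 2.18 and 2.37 FPKM untreated and 337, 297 and 334 with LPS. Osteoclasts had 2.69, 3.27 and 3.23 FPKM untreated and 24.3, 17.0 and 30.2 with LPS. All 4 groups were separate, although untreated osteoclast replicate 1 lay just above untreated macrophage replicate 1. The LPS effect by limma was 6.57 (SE 0.15, adjusted p = 3.62e-12) in macrophages, the 36th highest of the 11335 genes, and 2.58 (SE 0.15, adjusted p = 2.27e-07) in osteoclasts, the 63rd highest. The ratios of means were 135 (95% counting interval 124 to 146) and 7.78 (7.27 to 8.66). An exon of Cd274 overlaps AC119228.1 on the opposite strand, which is not among the genes of the expression table. The strand setting of the counting is not given, so reads of this pair cannot be told apart.

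Cd274 was the 1 tested ligand with a higher mean in untreated osteoclasts, at 128% of the macrophage level, and this difference was not called (log2 difference 0.26, SE 0.15, adjusted p = 0.148). It passed the threshold under quantile normalization (0.40, adjusted p = 0.0345), with library weights (0.29, adjusted p = 0.0365), in a fit of only the groups compared (0.26, adjusted p = 0.0224) and without osteoclast replicate 2 with LPS (0.26, adjusted p = 0.0219), and its sign turned after rescaling to TPM (-0.06, adjusted p = 0.741). With LPS, Cd274 was 13.5-fold lower in osteoclasts (-3.74, SE 0.15, adjusted p = 2.39e-10). Its interaction was the farthest from 0 of the 7, at -4.00 (SE 0.22, adjusted p = 1.98e-08), and it was called below 0 under every alternative run, from -4.18 to -3.56. The interaction was also called on recovered reads with voom, at -4.13 (SE 0.30, adjusted p = 5.12e-10).

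Set against the B7 ligands of CD28 and CTLA-4, Cd274 over the sum of Cd80 and Cd86 was 0.359 to 0.399 in untreated macrophages and 1.73 to 2.37 in untreated osteoclasts. With LPS it was 10.2 to 11.6 in macrophages and 7.68 to 11.1 in osteoclasts, so the cell types were separate at rest and overlapped with LPS. After LPS the transcript of this PD-1 ligand thus exceeded the sum of both B7 ligands in each cell type. In osteoclasts it already did so without LPS, and in macrophages it did not.

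Pdcd1lg2 (ENSMUSG00000016498, chr19:29410919-29471161, plus strand), which encodes PD-L2 and lies next to Cd274, was at or near 0 throughout. No read was assigned to it in any of the 6 macrophage libraries, with or without LPS, which allows up to 0.0651 to 0.120 FPKM per library (3 reads). Untreated osteoclast replicate 3 had 5 reads (0.179 FPKM) and osteoclast replicate 2 with LPS had 1 read (0.0394 FPKM), while the other 4 osteoclast libraries had none. Cd274 and Pdcd1lg2 are neighbours on chromosome 19, and the macrophage libraries with LPS had 15588 to 17009 reads of Cd274 beside 0 of Pdcd1lg2.

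Icam1 (ENSMUSG00000037405, chr9:21015985-21028817, plus strand), the adhesion ligand of LFA-1 and Mac-1, had the highest mean of the ligands in all 4 groups. Macrophages had 29.0, 29.1 and 27.4 FPKM untreated and 688, 685 and 699 with LPS. Osteoclasts had 6.66, 6.66 and 7.64 FPKM untreated and 57.7, 44.9 and 53.5 with LPS. No groups overlapped, and osteoclasts with LPS exceeded untreated macrophages. The LPS effect by limma was 4.55 (SE 0.08, adjusted p = 3.26e-13) in macrophages and 2.73 (SE 0.08, adjusted p = 1.00e-09) in osteoclasts, or 24.2-fold and 7.45-fold. Osteoclasts were 4.08-fold lower without LPS (log2 difference -1.89, SE 0.08, adjusted p = 3.33e-10) and 13.3-fold lower with it (-3.71, SE 0.08, adjusted p = 7.22e-13). The interaction was -1.82 (SE 0.11, adjusted p = 4.78e-08). Gm47079, on the opposite strand of Icam1, was at 0 to 0.247 FPKM, and the strand setting of the counting is not given in the sources used here, so reads of such a pair cannot be told apart.

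**Figure D3:**
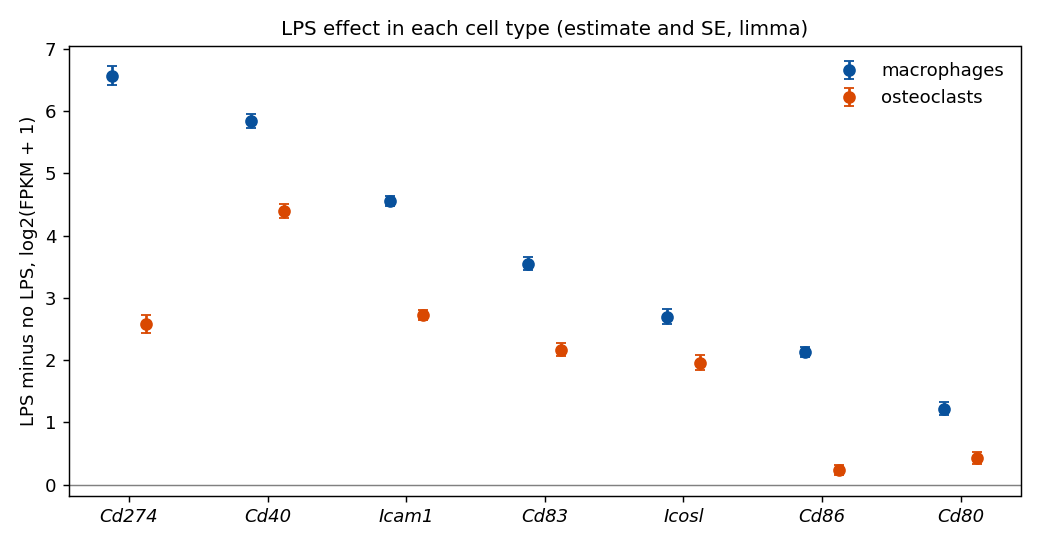
LPS effect on each tested ligand in macrophages and in osteoclasts, as the log2 difference on log2(FPKM + 1) from limma with its standard error. Cd274 has the widest distance between the cell types (6.57 and 2.58), and all 7 effects lie higher in macrophages on this scale.

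The order of the LPS effects differed between the cell types. On log2(FPKM + 1), the differences in macrophages ran Cd274 (6.57), Cd40 (5.84), Icam1 (4.55), Cd83 (3.55), Icosl (2.70), Cd86 (2.13) and Cd80 (1.22). In osteoclasts they ran Cd40 (4.40), Icam1 (2.73), Cd274 (2.58), Cd83 (2.17), Icosl (1.96), Cd80 (0.43) and Cd86 (0.23). The osteoclast order depended on the scale: with voom on recovered reads Icosl came first (7.62, against 6.18 for Cd40), and with a pseudocount of 0.1 it came after Cd40 (4.76 against 5.86) and Cd274 (2.89) was level with Icam1 (2.87). On log2(FPKM + 1), among all 11335 genes, Cd40 ranked 54th from the highest in macrophages and 17th in osteoclasts, Icam1 110th and 55th, and Cd86 541st and 1396th. The libraries with and without LPS did not overlap for any of the 7 ligands in either cell type, which held for 74.0% of all genes in macrophages and 34.0% in osteoclasts.

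Osteoclast replicate 2 with LPS was the lowest of its group for Cd40, Cd80, Cd274, Icosl and Icam1, the highest for Cd83 and the middle one for Cd86. Without it the osteoclast LPS effects were 4.56 for Cd40, 2.79 for Cd274, 2.83 for Icam1, 2.15 for Icosl, 2.12 for Cd83, 0.52 for Cd80 and 0.23 for Cd86, and the same 6 were called. The interactions without it ran from -3.78 for Cd274 to -0.55 for Icosl, and all 7 were called.

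**Figure D4:**
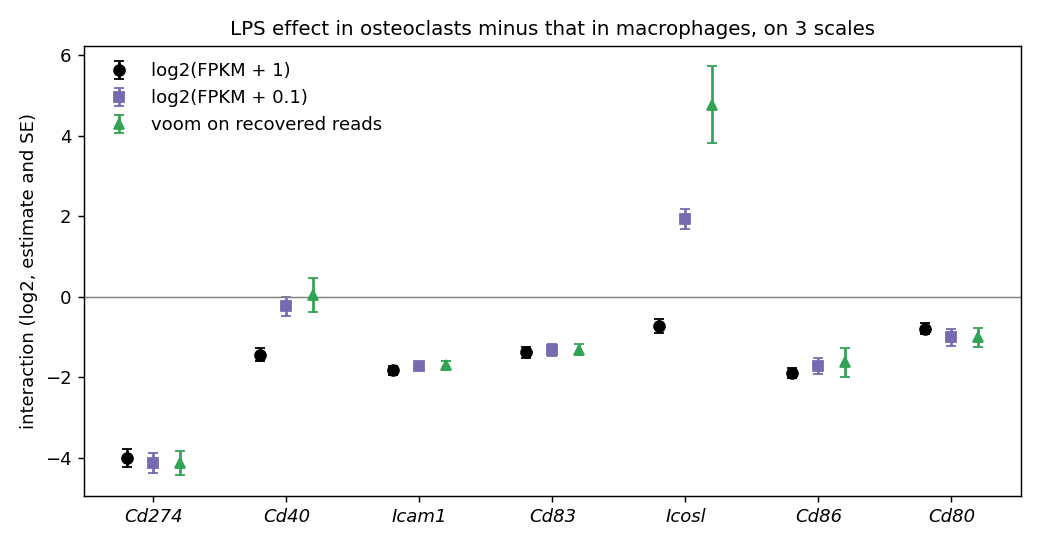
Interaction of each tested ligand (osteoclast minus macrophage LPS effect, log2) as estimate and SE on 3 scales: log2(FPKM + 1), log2(FPKM + 0.1) and voom on recovered reads, with a line at 0. Cd274, Cd86, Icam1, Cd83 and Cd80 lie below 0 on all 3, Cd40 runs from -1.44 to 0.04 and Icosl from -0.73 to 4.77.

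Markers of other cell types moved with some of these contrasts. Osteoclasts had 9.28% of the macrophage level of Adgre1 with LPS, 0.814% of Mrc1, 0.931% of Fcgr1, 5.81% of Cd14, 69.7% of Csf1r and 175% of Cd68. The ligands ran from 2.43% (Cd86) to 44.9% (Cd80) with LPS and from 0.159% (Icosl) to 128% (Cd274) without it, where the macrophage markers ran from 0.342% (Cx3cr1) to 209% (Cd68). The part of remaining macrophage-like cells in the osteoclast values was not tested. The summed level of 7 dendritic cell markers was 0.273 to 0.293 FPKM in untreated macrophages and 5.62 to 6.41 with LPS, led by Xcr1 at 5.31 with Flt3 at 0, and 0.661 to 0.710 in untreated osteoclasts and 1.42 to 1.84 with LPS, led by Zbtb46 in both. The B cell markers Cd79a, Cd79b, Ms4a1 and Pax5 summed to 0.510 to 1.14 FPKM in macrophages, led by Cd79b (0.975 untreated and 0.690 with LPS), and to 0 to 0.134 in osteoclasts, with Cd79b at 0. The 6 T cell markers had Cd3d, Cd3g and Cd8a at 0 in all groups. They summed to 0.394 to 0.590 FPKM in untreated macrophages, 2.63 to 2.97 with LPS, and at most 0.158 in osteoclasts. Cd4 led in both untreated groups and Lck in both LPS groups. The 5 stromal markers summed to 24.5 to 34.1 FPKM in macrophages, mostly Col1a1, and 0.211 to 0.858 in osteoclasts, with Lum at 0, and the 7 neutrophil markers summed to 4.46 to 12.7 and 0.247 to 1.76. The part of these in the ligand values was not tested.

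Other ligands with like roles did not all move this way. Their counts stand beside the shares of all tested genes: 36.8% rose and 33.1% fell with LPS in macrophages, 11.1% rose and 6.59% fell in osteoclasts, and with LPS 40.9% were higher and 43.0% lower in osteoclasts than in macrophages. Of 6 other B7 and butyrophilin-like ligands 2 were tested, and both fell with LPS in macrophages (median -0.80, or -1.49 after rescaling to TPM). In osteoclasts neither passed the test, although 1 was called lower with LPS under quantile normalization. Both were higher in osteoclasts in both conditions. Cd276, the B7 family member B7-H3, had 10.4, 4.02, 23.0 and 25.8 FPKM (means in untreated and LPS-treated macrophages, then untreated and LPS-treated osteoclasts), with a log2 LPS effect of -1.18 (SE 0.06, adjusted p = 5.72e-09) in macrophages and an interaction of 1.34 (SE 0.09, adjusted p = 1.13e-07). Vsir, the checkpoint protein VISTA, had means of 42.1, 31.4, 73.9 and 69.6 FPKM in the same order and was the most abundant of that list.

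Of 8 TNF-family co-stimulatory genes (ligands, with the receptor gene Tnfrsf14) 5 were tested. With LPS 5 rose in macrophages (median 3.28) and 4 in osteoclasts (median 1.02). These medians, on log2(FPKM + 1), were 5.86 and 2.12 with a pseudocount of 0.1 and 6.11 and 2.62 with voom on recovered reads, with the same counts. All 5 were lower in osteoclasts with LPS. Tnfsf4 and Tnfsf14 had a mean of at least 1 FPKM only in macrophages with LPS, and Tnfsf15 only in the LPS groups. They passed the filter on low values through those groups, which favoured a rise with LPS. For Tnfsf4 and Tnfsf14 it also favoured a lower value in osteoclasts. Tnfsf9, the ligand of 4-1BB, went from 2.61 to 181 FPKM in macrophages (log2 difference 5.66, SE 0.16, adjusted p = 1.60e-11) and had means of 0.248 and 1.60 in osteoclasts, with an interaction of -4.63 (SE 0.22, adjusted p = 7.31e-09). Tnfsf15, known as TL1A, had the highest osteoclast effect of the list (1.66, SE 0.15, adjusted p = 9.09e-06). Tnfrsf14, known as HVEM, was lower in untreated osteoclasts than in untreated macrophages (1.26 against 6.38 FPKM, log2 difference -1.70, SE 0.12, adjusted p = 7.29e-08). Its LPS effect was 1.23 in macrophages and 1.49 in osteoclasts, and its interaction was not called (0.26, SE 0.18, adjusted p = 0.232). In TPM, under quantile normalization, with a pseudocount of 0.1 and with voom, 1 interaction of the list was called above 0.

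Of 11 other checkpoint ligands 9 were tested. With LPS 6 rose in macrophages (median 0.92, or 1.54 with a pseudocount of 0.1), 5 in osteoclasts (median 0.27), and none fell. In macrophages 3 fell after rescaling to TPM and 1 under quantile normalization. In osteoclasts 4 rose under both of these scalings and with a pseudocount of 0.1. Between resting cell types 4 were higher and 4 lower in osteoclasts, a share near that of all genes, of which 38.8% were higher and 39.0% lower. Cd200, whose receptor restrains myeloid cells, stood far higher in osteoclasts, at 91.2 FPKM against 0.114 without LPS (log2 difference 6.37, SE 0.05, adjusted p = 1.58e-16) and 115 against 1.11 with it (5.78, SE 0.05, adjusted p = 3.81e-16). Lgals9, galectin-9, was lower in osteoclasts, at 3.60 against 52.8 FPKM without LPS and 8.13 against 153 with it (-4.10, SE 0.13, adjusted p = 1.72e-11). Cd47, the SIRP-alpha ligand that blocks phagocytosis, rose from 22.0 to 114 FPKM in macrophages (2.33, SE 0.05, adjusted p = 8.95e-13), while osteoclasts had 20.0 and 23.4 (interaction -2.11, SE 0.07, adjusted p = 2.09e-10). Lgals3, galectin-3, had the highest mean over the 12 libraries, 741 FPKM. The list's median turned sign after rescaling to TPM, to -0.22 for resting osteoclasts against macrophages (0.14 in the main fit) and to 0.08 for the interaction (-0.56).

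Of 11 adhesion and SLAM molecules 8 were tested: 6 rose and 1 fell with LPS in macrophages, and 5 rose and 1 fell in osteoclasts. The medians were 1.23 and 0.33, against 0.02 and 0.01 over all genes, of which 36.8% rose and 33.1% fell in macrophages and 11.1% rose and 6.59% fell in osteoclasts. Slamf7, a self-ligand of the SLAM family, had means of 2.11 and 193 FPKM in macrophages and 0.613 and 6.66 in osteoclasts, with LPS effects of 5.97 in macrophages (SE 0.17, adjusted p = 1.90e-11) and 2.21 in osteoclasts (SE 0.17, adjusted p = 2.35e-06). Cd84, another self-ligand, fell in both cell types (-0.93, SE 0.04, and -0.21, SE 0.04). With LPS 7 of the 8 were lower in osteoclasts, as were 43.0% of all genes. Slamf1 had a mean of at least 1 FPKM only in macrophages with LPS, Vcam1 only in the LPS groups and Icam2 only in the macrophage groups. The filter on low values let them in through those groups. This favoured a rise with LPS for Slamf1 and Vcam1 and a lower osteoclast value for Slamf1 and Icam2.

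Receptors of the ligands were mostly integrin chains in these cells: of 9 receptor genes 5 were tested, and Cd40lg was at 0 in all groups. With LPS in macrophages 3 rose and 1 fell, which turned to 1 and 4 after rescaling to TPM and to 1 and 3 under quantile normalization. In osteoclasts 1 rose and none fell, although 1 was called lower under quantile normalization. Of all genes, 36.8% rose and 33.1% fell in macrophages (15.9% and 70.0% in TPM), and 11.1% rose and 6.59% fell in osteoclasts. Itgal, the LFA-1 alpha chain that binds ICAM-1, had 29.4 and 77.7 FPKM in macrophages and 3.00 and 8.87 in osteoclasts, with LPS effects of 1.37 in the former (SE 0.15, adjusted p = 4.79e-06) and 1.28 in the latter (SE 0.15, adjusted p = 8.48e-05). Both Icam1 and its LFA-1 alpha chain were thus higher with LPS in each cell type and lower in osteoclasts. Itgax was higher in osteoclasts (1.91, SE 0.09, adjusted p = 1.61e-09, without LPS), and Itgb2, the shared beta chain, had the highest mean of the list, 249 FPKM. Cd28 fell with LPS in macrophages (-0.45, SE 0.10, adjusted p = 0.00219).

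All 12 genes of CD40 signalling and B7 protein control were tested. With LPS 8 rose and 4 fell in macrophages (median 0.57, with 5 and 4 and a median of 0.08 in TPM). In osteoclasts 4 rose and 1 fell (median 0.06, with the sign turned to -0.02 under quantile normalization and -0.01 in TPM). The 4 became 3 under these scalings and with a pseudocount of 0.1, and 5 with voom. Of all genes, 36.8% rose and 33.1% fell in macrophages and 11.1% rose and 6.59% fell in osteoclasts. Traf1, an adapter of CD40 and other TNF receptors, had means of 0.269 and 43.3 FPKM in macrophages and 13.1 and 30.8 in osteoclasts, so its level at rest was higher in osteoclasts (3.48, SE 0.04, adjusted p = 1.36e-14), the opposite of Cd40. Map3k14, the kinase NIK of alternative NF-kB signalling, fell in macrophages (-1.83, SE 0.08, adjusted p = 9.09e-10) and in osteoclasts (-0.47, SE 0.08, adjusted p = 0.00154). Cmtm6 and Cmtm4, which stabilise PD-L1 protein, differed in opposite directions: Cmtm6 had 45.3 and 95.1 FPKM in macrophages and 14.0 and 14.3 in osteoclasts, and Cmtm4 had 7.47 and 2.54 against 53.6 and 50.1. March1, the ubiquitin ligase that removes CD86 from the surface, had 3.42 and 16.0 FPKM in macrophages and 0.443 and 0.454 in osteoclasts (log2 difference with LPS -3.54, SE 0.13, adjusted p = 9.98e-11), the same direction as Cd86.

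Of 13 genes of the NF-kB, IRF and STAT families (with the kinase gene Jak2) 12 were tested, and all 12 rose with LPS in macrophages (median 2.74), 10 rose in osteoclasts (median 0.80), and all 12 were lower in osteoclasts with LPS. In osteoclasts 1 gene of the list was called lower with LPS after rescaling to TPM, under quantile normalization and with a pseudocount of 0.1, and none with voom. Of all genes, 36.8% rose in macrophages (median 0.02), 11.1% rose in osteoclasts (median 0.01) and 43.0% were lower in osteoclasts with LPS. Irf1, an interferon-induced activator, rose from 7.17 to 375 FPKM in macrophages and from 2.60 to 20.6 in osteoclasts (5.52, SE 0.11, and 2.57, SE 0.11, interaction -2.95, SE 0.16, adjusted p = 1.46e-08). Irf8, which is known to be lost during osteoclast formation, had 22.7 and 95.1 FPKM in macrophages and 1.08 and 0.745 in osteoclasts (log2 difference with LPS -5.79, SE 0.09, adjusted p = 5.47e-14). Nfkb2 was the highest above macrophages in resting osteoclasts (0.83, SE 0.04, adjusted p = 2.29e-09) and the most abundant, at 103 FPKM over all libraries.

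**Figure D5:**
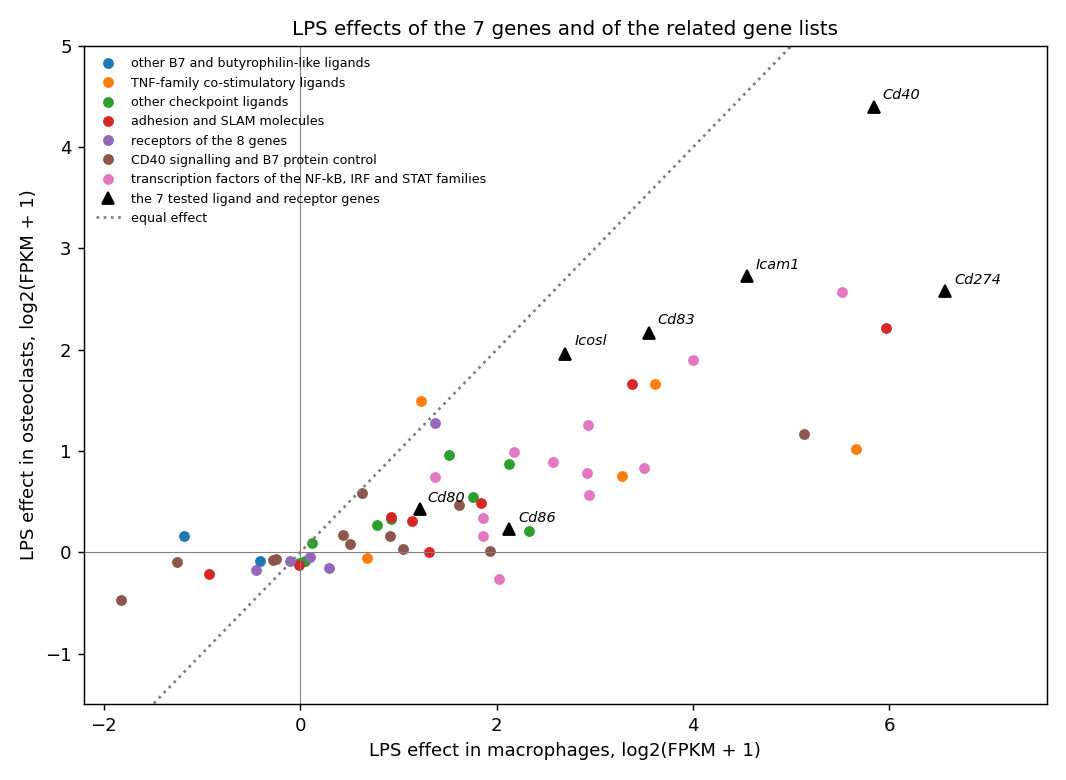
LPS effect in macrophages (x axis) and osteoclasts (y axis), each as a log2 difference on log2(FPKM + 1), for the tested genes of the 7 pathway lists, with the 7 tested genes described here as labelled black triangles and a dotted line of equal effects. Each of the 7 ligands lies to the right of that line, with Cd274 the farthest from it and Cd80 and Icosl the nearest.

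The genes whose pattern was most like that of each ligand were taken by Pearson's r over the 12 libraries on log2(FPKM + 1), among protein-coding genes whose mean reached 5 FPKM. The libraries form 4 groups, so high values are common: 111 to 623 genes exceeded 0.95 with each ligand. Nearest to Cd40 were Isg15 (r = 0.9993) and Ccl3 (0.9992), and nearest to Cd274 were Cd69 (0.9994) and Bcl2a1d (0.999). Icam1 was nearest to Dtx3l (0.9985) and Ifi211 (0.9983), and Icosl to Ikzf1 (0.9985). Cd83 was nearest to Nfkbiz (0.9945) and Fpr1 (0.9933), Cd80 to Mocs1 (0.993) and Tgtp2 (0.9843), and Cd86 to H2afy (0.9981) and Abcc4 (0.9979). Cd69 had means of 0.130 and 108 FPKM in macrophages and 0.224 and 7.50 in osteoclasts, the same order of groups as Cd274.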

How the data were processed

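RNA was measured in 12 libraries, 3 for each of 4 groups taken from the sample titles. The authors deposited FPKM values for 54532 genes. The submitters' processing notes name fastp, STAR, featureCounts, DESeq2 and mm10, without versions, roles or order; annotation and strand setting are not given in the sources used here. Of 25854 genes above 0, 96.8% had values that were whole reads (tolerance 0.02 of a read) at their merged exon length in GENCODE M21. The denominators departed by at most 7.9e-05% from median-of-ratios size factors times the geometric mean of the totals, so the FPKM are taken, from the values, as relative to the typical gene. Counting intervals (95%) and floors of 3 reads cover counting error only.

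The 11335 genes that reached 1 FPKM in 3 or more libraries were fitted with limma 3.58.1 in R 4.3.3 (variance trend) on log2(FPKM + 1), which understates changes of low genes, with all 12 libraries, 4 group means and 5 contrasts. Tests were two-sided and adjusted by Benjamini-Hochberg over all tested genes. The code was also run on simulated counts with few changed genes and a fixed dispersion, which checks the code and not the calls made here. Named from each list and contrast were the called genes with the highest and lowest difference and the gene with the highest level; the text gives a part of these. The pair of genes most like each ligand was also named, except 1 gene that is not reported here, as is 1 marker. Alternatives covered filters, pseudocount, scaling, model and each library left out. The members and lists were chosen with earlier results of these data known.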

Additional observations from a re-analysis of the deposited data

Results flagged for a closer look

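For each of the 7 tested ligands the interaction test gave a difference in LPS effect between macrophages and osteoclasts, by a fit of limma on log2(FPKM + 1). The interaction, osteoclasts minus macrophages, was -4.00 for Cd274, -1.90 for Cd86, -1.82 for Icam1, -1.44 for Cd40, -1.38 for Cd83, -0.79 for Cd80 and -0.73 for Icosl, where 56.6% of all tested genes were called. For Cd40 and Icosl the sign or call depended on the scale. In log2 ratios of means the interaction was 0.02 for Cd40 and 5.08 for Icosl, the latter against 3 reads in untreated osteoclasts, while it was -4.11 for Cd274, -1.70 for Icam1, -1.64 for Cd86, -1.31 for Cd83 and -1.02 for Cd80.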

How the results depend on the processing

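With all libraries, 358 of 373 values of single ligands under an alternative kept their direction and their side of the threshold, 6 turned, 6 passed and 3 were lost. Those that turned were the Cd40 interaction with voom (0.04), the Icosl interaction with a pseudocount of 0.1 (1.93), in TPM (0.97) and with voom (4.77), and the resting cell type differences of Cd80 under quantile normalization (0.10) and Cd274 in TPM (-0.06). The Icosl interaction was not called under quantile normalization (-0.35) and that of Cd40 in TPM (-0.19). With 1 library left out, 414 of 420 did so, and the Cd80 difference at rest turned without untreated macrophage replicate 1 (0.01, in a range of -0.14 to 0.01). Ligands called then numbered 5 to 7 for LPS in osteoclasts, 5 to 6 for resting cell types and 7 in the other contrasts, and the percent of genes called was 65.7 to 70.9 and 12.7 to 18.0 for LPS in macrophages and osteoclasts, 74.7 to 79.5 and 81.9 to 84.1 for cell types without and with LPS, and 52.8 to 56.1 for the interaction. Without the filter on low values 36.1% and 6.35% of genes were called for LPS in macrophages and osteoclasts, 42.2% and 46.4% for cell types without and with LPS, and 26.4% for the interaction, since more genes were tested. Rescaling to TPM moved the median of all genes to -0.555 for LPS in macrophages, -0.379 and 0.123 for cell types without and with LPS, and 0.513 for the interaction, and quantile normalization moved the first to -0.136. The share of higher among called genes went from 52.6% to 18.5% and 37.0% for LPS in macrophages under these scalings in turn, from 62.8% to 43.5% and 38.5% in osteoclasts, from 47.0% to 82.0% and 59.9% for the interaction, and from 49.9% to 29.9% in TPM for resting cell types. voom on recovered reads called 7948 genes for LPS in macrophages and 2410 in osteoclasts. Cd80 did not enter the filter of a mean of at least 5 FPKM. Fewer than 50 reads lie behind each osteoclast value of Cd86 and the untreated ones of Cd40 and Icosl.

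Same-numbered replicates correlated in their deviations by -0.07 to 0.104, and not every one correlated best with its own number, so the numbers were taken as names. With the replicate block the ligands called were 7 and 6 for LPS in macrophages and osteoclasts, 5 and 7 for cell types without and with LPS and 7 for the interaction, with 69.8%, 17.0%, 77.5%, 83.9% and 56.7% of genes called.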
